A study of Mus musculus with 2 samples.

Results

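The cluster of Mir322 and Mir503 is a group of microRNA genes on the X chromosome, and 7 of its genes were followed here among the 1973 microRNA genes counted in newborn mouse kidney. The members were listed by gene symbol, with no threshold on their counts, although earlier results of these data were known when the list was made: Mir322, Mir503, Mir351, Mir542, Mir450-2, Mir450-1 and Mir450b. All 7 had a row in both count tables, and all 7 had counts in both libraries. Small RNA was sequenced from whole kidney tissue of B6NCrl mice at postnatal day 0. Each of the 2 libraries was made from both kidneys of 1 pup, and the pups, called pup 1 and pup 2, came from the same pregnancy. Both carry the same donor identifier in the labels, where they are numbered as separate biological replicates. No genotype change or treatment is named, and sex was not collected. The design therefore holds 1 group at 1 age, and it allows comparisons between microRNA genes of the kidney and of 1 pup with the other.

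A microRNA gene is transcribed as part of a longer RNA, and its hairpin is cut into a short duplex, 1 strand of which guides silencing of target messengers. Target choice rests mainly on the seed, bases 2 to 8 of the mature microRNA, so microRNAs with the same seed share many targets. miR-322 and miR-503 are known for holding back the cell cycle, among others through cyclins and Cdc25 phosphatases, and the cluster is known from muscle differentiation and placenta. Growth arrest itself was not measured in these libraries, which give microRNA levels only.

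The mature sequences are shown first because the seed decides with which other genes of the kidney each member can be grouped. They come from RefSeq on build GRCm38.p6, run from 5′ to 3′, and carry the seed in capitals.
miR-322-5p: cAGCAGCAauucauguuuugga
miR-503-5p: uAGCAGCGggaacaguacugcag
miR-15a-5p: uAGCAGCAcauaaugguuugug
miR-16-5p: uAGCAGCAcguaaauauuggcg
miR-351-5p: uCCCUGAGgagcccuuugagccug
miR-125a-5p: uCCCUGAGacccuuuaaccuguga
miR-542-3p: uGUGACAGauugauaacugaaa
miR-450a-5p: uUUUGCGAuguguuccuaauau
miR-450b-5p: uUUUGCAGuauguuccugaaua
RefSeq gave mature sequences for all 7 members, 13 named arms in all.

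The seed of miR-322-5p is that of miR-15a, miR-16 and their relatives on other chromosomes. Beyond the seed miR-322-5p is less alike, with 15 of 22 bases identical to miR-15a-5p and 12 of 22 identical to miR-16-5p when aligned from the first base without gaps. miR-503-5p differs from miR-322-5p within the seed at 1 base, A8G (miR-322-5p has the first letter, positions counted from the 5′ end), and no other mouse microRNA of the table has its seed. miR-351-5p has the seed of the miR-125 microRNAs, although only 10 of 22 bases are identical to miR-125b-5p. The seed of miR-542-3p occurs in no other microRNA of the table. miR-450a-5p and miR-450b-5p differ at 7 of 22 bases, of which G7A and A8G fall within the seed, so the miR-450 genes have 2 different seeds on their 5p arm. On the 3p arm Mir450-1 and Mir450b have the same seed, with 20 of 22 bases identical.

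Mir450-1 and Mir450-2 both make miR-450a-5p, letter for letter. Their hairpins have a stretch of 25 bases in common that holds this whole arm of 22 bases. A read that lies within that stretch matches both places, and multimapping reads, 30.3% of reads in pup 1 and 31.0% in pup 2, are listed apart from gene counts. The counts of these 2 genes therefore leave out any such reads, and their levels are uncertain. Each other mature arm of the cluster occurs in 1 hairpin of GENCODE release M21.

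The members lie on the minus strand of the X chromosome within 6353 bases, at chrX:53047997-53054349 on mm10. In the direction of transcription Mir322 (ENSMUSG00000065418.1, chrX:53054255-53054349) comes first. Mir503 (ENSMUSG00000076122.1, chrX:53053984-53054054) follows after 200 bases and Mir351 (ENSMUSG00000065503.1, chrX:53053255-53053353) after another 630. Then comes a gap of 3767 bases before Mir542 (ENSMUSG00000076140.1, chrX:53049403-53049487), into which the annotation places the lincRNA Gm28730 on the same strand. Mir450-2 (ENSMUSG00000076399.1, chrX:53048299-53048367) lies 1035 bases further on. Mir450-1 (ENSMUSG00000065486.1, chrX:53048154-53048244) and Mir450b (ENSMUSG00000076050.1, chrX:53047997-53048078) close the cluster after 54 and 75 bases. No gene body of the annotation covers a member on its strand, and the noncoding gene C430049B03Rik ends 696 bases before the 5′ end of Mir322.

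Together the 7 genes held 283082 of 5832192 counts in pup 1 and 185412 of 3846704 counts in pup 2, or 4.84% ± 0.0239 of all gene counts (mean ± SD, n = 2 pups, as in all such values here). Of all mapped reads, which include the multimapping ones, they held 3.06% ± 0.0419. In pup 1 the share was 4.85%, with 95% Wilson bounds of 4.84 and 4.87, and in pup 2 it was 4.82%, with bounds of 4.80 and 4.84. The intervals, like all others here, take in counting error alone and treat each read as independent. No molecular identifiers are named in the sources at hand, and several reads can stem from 1 molecule, so the intervals can be too narrow. The labels name separate pups but say nothing of separate library batches, so the spread between pups may be partly technical.

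Mir322, whose product has the seed of the miR-15/16 family, supplied most of the cluster. It had 257200 counts in pup 1 and 167266 in pup 2, a level of 44100 and 43483 CPM, which is counts scaled to a library total of 1000000 gene counts. By gene counts, which leave out reads listed as multimapping, its mean of 43791 ± 436 CPM placed it 6th among all counted genes. With all mapped reads as the total, its mean was 27706 ± 519 CPM. Mirlet7g stood directly above it with 51758 ± 1572 CPM and Mirlet7i directly below with 38857 ± 3156, and the pups' values of Mir322 overlapped with those of neither. Within the cluster Mir322 took 90.9% of pup 1's counts (Wilson bounds 90.8 and 91.0) and 90.2% of pup 2's (bounds 90.1 and 90.3).

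Mir503, the other member known for cell cycle control, was far lower than its neighbour 200 bases away. It had 788 CPM in pup 1 and 747 in pup 2, from 4593 and 2873 counts. Mir322 stood at 56.0 times its count in pup 1 (exact 95% counting interval 54.4 to 57.7) and at 58.2 times in pup 2 (56.1 to 60.4). The intervals of the pups overlapped. On the scale of counts per 100 bases of hairpin the ratio was 42.7 ± 1.17.

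Mir351, with the seed of the miR-125 family, was the second member by level. It had 2736 CPM in pup 1 and 3072 in pup 2, 15955 and 11817 counts, and ranked 44th of all genes. Both values lay above those of Mir503 and below those of Mir322 in either pup. The ratio of Mir322 to Mir351 was 16.1 in pup 1 (15.9 to 16.4) and 14.2 in pup 2 (13.9 to 14.4). Those intervals did not overlap, nor did those of the ratio of Mir351 to Mir503, 3.47 in pup 1 (3.36 to 3.59) and 4.11 in pup 2 (3.95 to 4.29). Mir351 thus made up more of the cluster in pup 2, with 6.37% of its counts against 5.64% in pup 1.

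Mir542, whose 3p arm is known for silencing survivin, had 722 CPM in pup 1 and 727 in pup 2, from 4213 and 2796 counts. The ratio of Mir322 to Mir542 was 61.0 in pup 1 (59.2 to 63.0) and 59.8 in pup 2 (57.6 to 62.1), with overlapping intervals. Mir542 and Mir503 were close in level despite lying on either side of the gap. Mir503 was higher in both pups, with a ratio of 1.09 in pup 1 (1.05 to 1.14) and 1.03 in pup 2 (0.975 to 1.08). In pup 2 that interval includes equal counts, so the order of these genes was not resolved there.

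The miR-450 genes at the far end of the cluster were the lowest. Mir450b had 166 CPM in pup 1 and 143 in pup 2, from 970 and 550 counts. Mir450-1 had 14.7 and 18.2 CPM, from 86 and 70 counts, and Mir450-2 had 11.1 and 10.4 CPM, from 65 and 40 counts. All 3 were above the floor of 3 counts, equal to 0.514 CPM for pup 1 and 0.780 for pup 2. Mir450b exceeded Mir450-1, only 75 bases away, 11.3-fold in pup 1 (9.04 to 14.2) and 7.86-fold in pup 2 (6.12 to 10.2). Mir450-1 shares its 5p arm with Mir450-2 and Mir450b does not, so that contrast holds for uniquely placed reads only. The ratio of Mir450-1 to Mir450-2 was 1.32 in pup 1 (0.948 to 1.86), which includes equal counts, and 1.75 in pup 2 (1.17 to 2.65). The 3 genes held 0.376% ± 0.0283 of the cluster's counts.

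**Figure D1:**
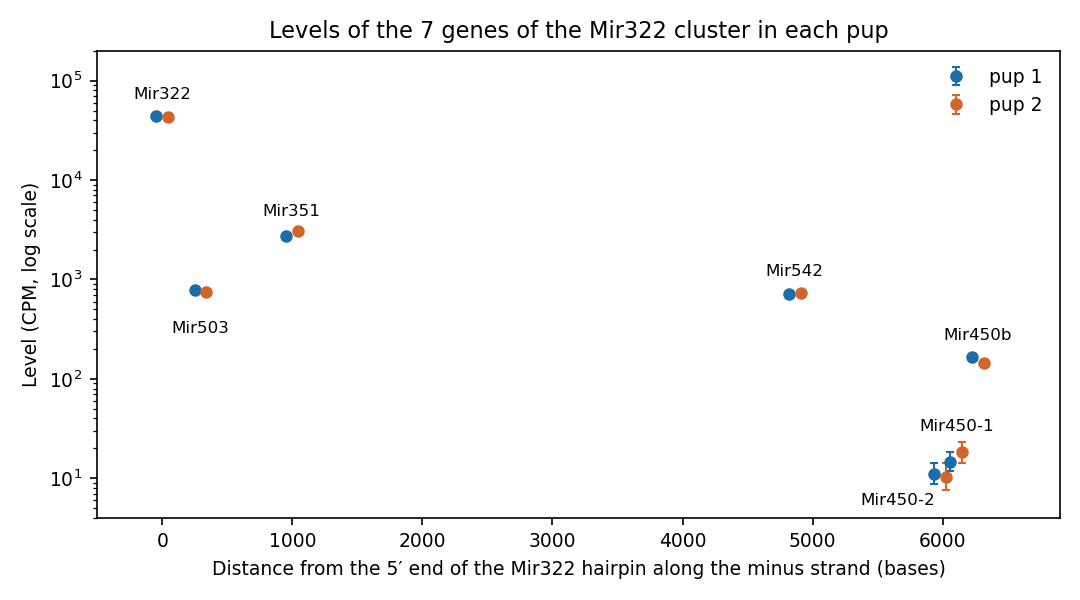
Level of each cluster gene (CPM, log scale) against the distance of its hairpin from the 5′ end of Mir322 along the strand (bases), with 1 point per pup and 95% Wilson intervals, many smaller than the point; the points of the pups are set slightly apart. Mir322 sits near 44100 CPM, Mir503 and Mir542 between 722 and 788, and Mir450-2 between 10.4 and 11.1.

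By mean level the order was Mir322, Mir351, Mir503, Mir542, Mir450b, Mir450-1 and Mir450-2. The order was the same per 100 bases of hairpin, where Mir322 had 46096 ± 459 CPM and Mir450-2 15.6 ± 0.765. Level did not simply follow position: Mir351 was higher than Mir503, which lies before it. Mir450b, the last, was also higher in counts than Mir450-1 and Mir450-2, the hairpins just before it. Counts of Mir450-1 and Mir450-2 leave out any multimapping reads of the mature arm they share. The contrast with Mir450b thus holds for uniquely placed reads only. The mean of Mir322 was 15.1 times that of Mir351, and the mean of Mir351 was 3.78 times that of Mir503. MicroRNAs can differ in how readily they enter a library, which was not measured, so these are orders and ratios of reads and not of molecules.

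**Figure D2:**
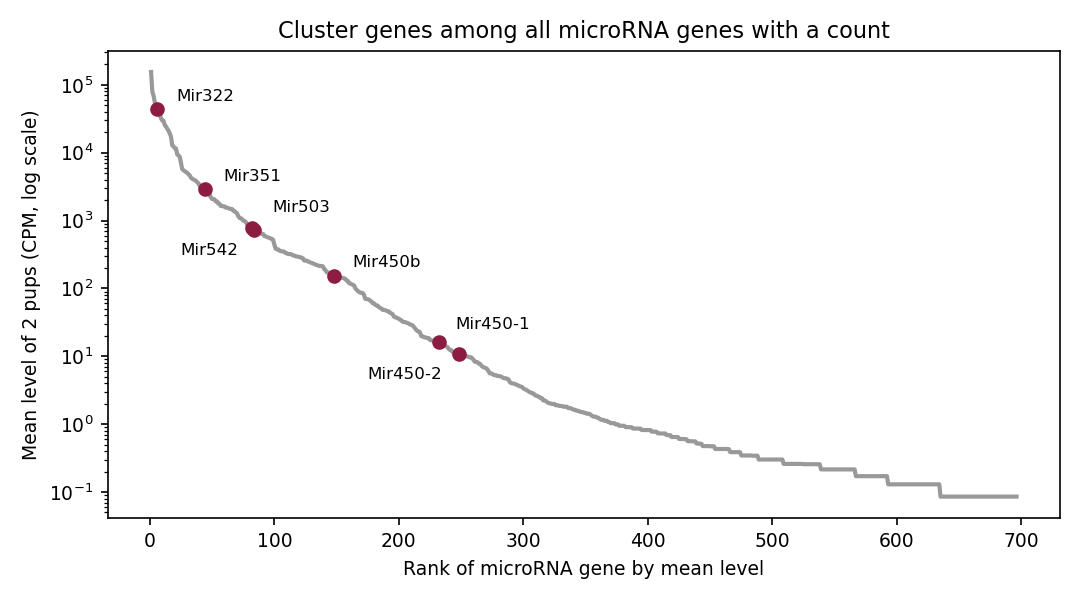
Mean level over the pups (CPM, log scale) of every microRNA gene with a count, in order of rank (grey line), with the 7 cluster genes as dark red points. Mir322 is 6th at 43791 CPM and Mir450-2 is 248th at 10.8 CPM, so the cluster spans most of the range of genes at 10 CPM or more.

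In rank, Mir351 (44th), Mir503 (82nd), Mir542 (84th), Mir450b (148th), Mir450-1 (232nd) and Mir450-2 (248th) were spread over the detected microRNAs, and each lay so close to the genes next to it that the pups' values overlapped. Directly above and below Mir351 were Mir27b with 2943 ± 187 CPM and Mir16-1 with 2731 ± 141. Mir503 lay between Mir301 (774 ± 7.55 CPM) and Mir205 (747 ± 81.2), and Mir542 between Mir205 and Mir16-2 (708 ± 32.8). Mir450b lay between Mir363 (157 ± 7.47 CPM) and Mir5099 (152 ± 22.4). Mir450-1 lay between Mir18b (16.5 ± 0.180 CPM) and Mir1198 (15.8 ± 1.40), and Mir450-2 between Mir3099 (11.0 ± 0.160) and Mir181b-1 (10.8 ± 1.99). With 2 libraries, likeness to other genes was taken from the level only. Ranks rest on counts without multimapping reads, so genes with copies elsewhere can stand too low.

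Mir322 held most of the counts of the genes that carry the seed of miR-322-5p. Counts belong to a hairpin and can include reads of either arm, so the part of them with this seed is not known. Of 11 genes with the seed of miR-322-5p in RefSeq, 10 had a row in the tables. Of their counts, Mir322 took 79.9% in pup 1 (Wilson bounds 79.8 and 80.1) and 78.7% in pup 2 (bounds 78.6 and 78.9). Next came Mir15a with 4283 ± 297 CPM, Mir16-1 with 2731 ± 141, Mir195a with 2071 ± 23.1, Mir15b with 1624 ± 24.1 and Mir16-2 with 708 ± 32.8. Mir195b had 1 count in pup 2 and 0 in pup 1, and Mir6342, Mir6353 and Mir6419 had 0 counts in both pups. Mir322 exceeded Mir15a 10.8-fold in pup 1 (10.7 to 11.0) and 9.68-fold in pup 2 (9.53 to 9.83).

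Reads of miR-16-5p match both Mir16-1 and Mir16-2, whose counts leave out any reads listed as multimapping. Without these genes the share of Mir322 was 84.6% ± 0.614, over 8 genes. Leaving out other genes of the group can only raise that share, while multimapping reads of theirs, if counted, would lower it. The true part of Mir16-1 and Mir16-2 cannot be read from these counts. Mir497, which encodes miR-497a with the same seed, has no row of its own. Reads on the strand opposite to Mir497b, at the place of Mir497, came to 7466 in pup 1 and 4395 in pup 2, or 1211 ± 97.3 CPM. With these reads added to the group, which was decided on after the data had been seen, the share of Mir322 was 77.6% ± 0.686. Mir503, whose seed differs at its last base, added little, and Mir322 and Mir503 together held 79.6% ± 0.838 of the counts of all such genes.

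For the genes with the seed of miR-351-5p the counted reads were spread more evenly. Of its 6 genes, all with a row, Mir351 took 42.1% of counts in pup 1 (41.6 to 42.6) and 45.1% in pup 2 (44.5 to 45.7). Mir125a was the highest by counted reads, at 3215 ± 36.2 CPM. Mir351 stood at 0.844 times the count of Mir125a in pup 1 (0.827 to 0.862) and 0.963 times in pup 2 (0.939 to 0.988). Mir125b-2 and Mir125b-1 had 278 ± 10.4 and 258 ± 7.25 CPM, and Mir6367 and Mir6394 had 0 counts in both. The miR-125b genes share their mature 5p arm, so their reads can be listed as multimapping too, and their true place in the group is not known. Without them the share of Mir351 was 47.4% ± 2.32, but leaving out other genes can only raise a share. Among genes that share a seed with other arms of the members, Mir6966, with the seed of miR-542-5p, had 0.819 ± 0.0547 CPM. Mir6352, with the seed of the 3p arm of Mir450-1 and Mir450b, had 0 counts. Counts belong to a hairpin, so which arm was read is not known for any gene.

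**Figure D3:**
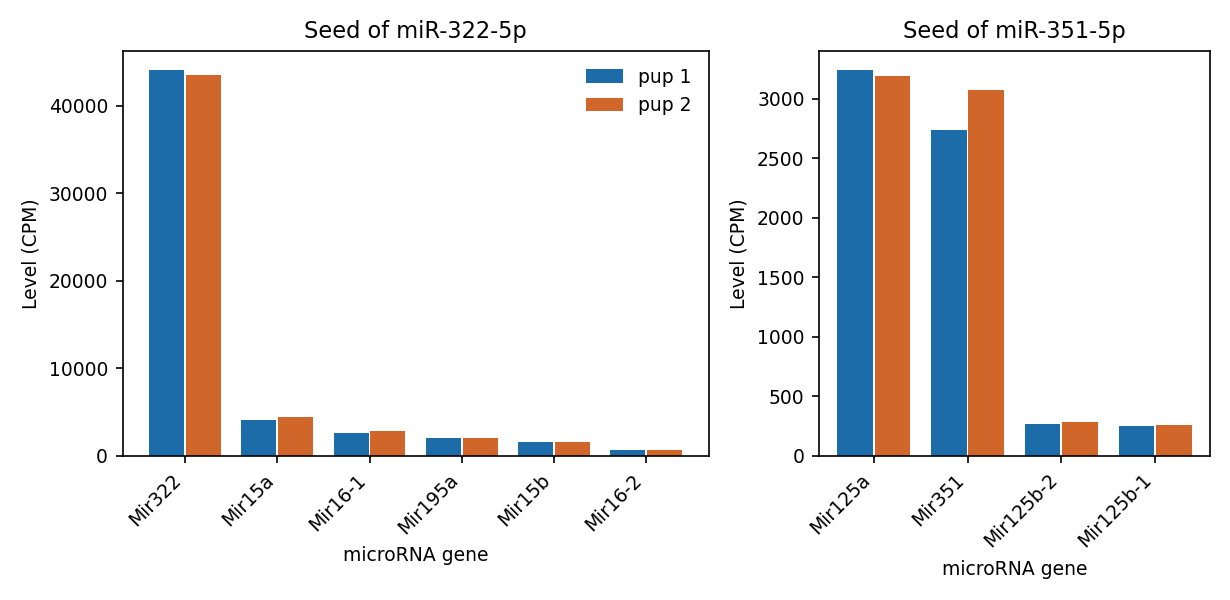
Level (CPM) in pup 1 (blue) and pup 2 (orange) of the genes above 5 CPM with the seed of miR-322-5p (left) and of miR-351-5p (right); the vertical scales of the panels differ and both start at 0. Mir322 stands at 44100 and 43483 CPM against 4283 CPM on average for Mir15a, while Mir351 lies just under Mir125a. Counts of Mir16-1, Mir16-2, Mir125b-1 and Mir125b-2 leave out any reads listed as multimapping.

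The cluster also held most of the microRNA counts of its chromosome. The X chromosome had 120 counted genes, of which 33 reached 10 CPM in each pup, and held 6.87% ± 0.0431 of all counts. The 7 members made up 70.3% of these in pup 1 (Wilson bounds 70.2 and 70.5) and 70.5% in pup 2 (bounds 70.3 and 70.6). Outside the cluster the highest X-linked genes were Mir98 with 5713 ± 2.13 CPM, Mirlet7f-2 with 4015 ± 60.6, Mir652 with 3957 ± 68.2, Mir361 with 1634 ± 65.3 and Mir532 with 696 ± 22.6. By mean level among X-linked genes, Mir351 came directly after Mir652, with its values in both pups below those of Mir652. The neighbouring X-linked cluster led by Mir106a, whose relatives are known from dividing progenitor cells, had 763 ± 55.2 CPM over 6 genes. In 2 of those 6 genes, and in Mirlet7f-2, a stretch of 22 bases recurs in a hairpin elsewhere. Their counts leave out any reads listed as multimapping, so the share of the Mir322 cluster holds for counted reads only.

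Unequal levels within a cluster were then set beside those of other clusters, defined as microRNA genes on the same strand with neighbours at most 10 kb apart and at least 3 genes with rows. Of 17 such clusters with counts in both pups, 10 reached a joint level of 1000 CPM, and the cluster of Mir322 had the highest joint level, 48369 ± 239 CPM. The next were the clusters led by Mir17 (32669 ± 2167 CPM), Mir429 (27277 ± 222), Mir93 (13134 ± 681) and Mir23a (12130 ± 542). Mir322 took 90.5% ± 0.455 of its cluster, while the median share of the leading gene over the 10 clusters was 54.2%. Only the cluster led by Mir23a was more uneven by this measure among the 10, at 95.4% ± 0.264, and 1 of its 3 genes shares a stretch of 22 bases with another hairpin. This comparison is a description without a test. Joint levels and leading shares both depend on how many genes a cluster has and on reads that are listed as multimapping. Of the 6 genes of the Mir17 cluster, 2 share such a stretch, as do 2 of the 7 members here. The order of joint levels thus holds for counted reads only.

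**Figure D4:**
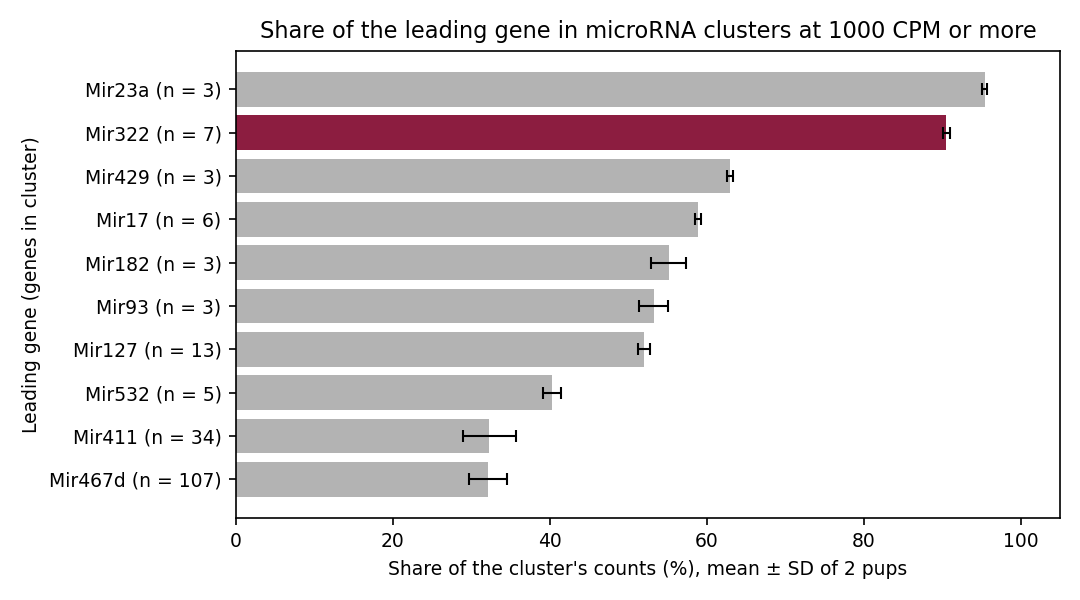
Share of counts taken by the leading gene (%, mean ± SD of 2 pups) in the 10 microRNA clusters with a joint level of 1000 CPM or more, each named by its leading gene with its number of genes. The cluster of Mir322 (dark red) stands at 90.5%, below that of Mir23a at 95.4% and above the other 8, which lie between 32.1% and 63.0%.

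Between the pups, the cluster as a whole differed little, and its members went both ways. Log2 ratios here are of pup 2 over pup 1 after TMM scaling, with 95% counting intervals. An exact binomial test of both counts, with Benjamini-Hochberg adjustment over all 324 genes whose mean count was 10 or more, called 4 of the 7 members. Of all tested genes it called 33.6%, with 12.7% higher and 21.0% lower in pup 2. The test compares the reads of 2 libraries, not conditions, and knows counting error only, so a small ratio of an abundant gene can pass it.

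Mir322 was lower in pup 2 by a log2 ratio of -0.04 (-0.05 to -0.03), with an adjusted p of 6.6e-19 by the exact binomial test. Mir351 went the other way, at 0.15 (0.11 to 0.18; adjusted p = 7.4e-16 by the same exact test). Mir450b was lower at -0.24 (-0.39 to -0.09; adjusted p = 0.0074, exact). Mir503 was lower at -0.10 (-0.17 to -0.03; adjusted p = 0.016, exact), a call that ended with library totals (adjusted p = 0.081, exact binomial) and with DESeq2 size factors (adjusted p = 0.051). Mir542 at -0.01 (-0.08 to 0.06), Mir450-1 at 0.28 (-0.19 to 0.75) and Mir450-2 at -0.11 (-0.73 to 0.47) did not pass, and at the depth of the last 2 genes a difference of such size was not detectable.

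The members' median log2 ratio was -0.04, the same as over all 324 genes at -0.04, and their median absolute ratio was 0.11 against 0.15. The biological coefficient of variation between the pups, estimated with edgeR over the same genes, was 9.29%. An edgeR exact test with that dispersion called 0 of the 7 members, with 0 at an unadjusted p under 0.05, and 1 gene of 324, or 0.309%, with 14 at an unadjusted p under 0.05. The dispersion comes from the very difference that the test assesses, so these few calls say nothing on whether the members differed. Over all 324 genes the binomial test called 33.6%, with 12.7% higher and 21.0% lower in pup 2. So few relatives cannot be set apart from those shares. Of the 5 tested relatives of the miR-15/16 kind, the binomial test called 2 higher in pup 2, Mir15a (log2 ratio 0.12) and Mir16-1 (0.08), and 0 lower. Mir16-2 (0.07) missed the threshold with an adjusted p of 0.11 and passed it with library totals (0.028, exact binomial) and DESeq2 size factors (0.046). Of the 3 miR-125 genes it called 0 higher and 1 lower, Mir125a (-0.04; adjusted p = 0.028, exact). That call ended with library totals (adjusted p = 0.36, exact binomial), with DESeq2 size factors (0.20) and with no filter on low counts (0.060).

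**Figure D5:**
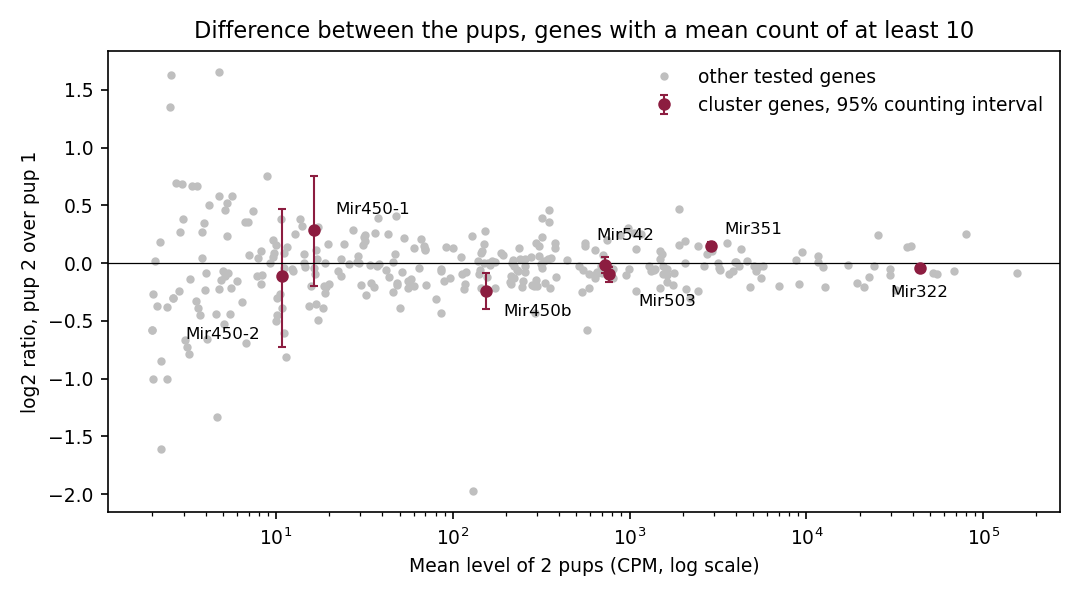
Log2 ratio of pup 2 over pup 1 against mean level (CPM, log scale) for the 324 tested genes (grey) and the 7 cluster genes (dark red, with 95% counting intervals). The cluster genes lie between -0.24 and 0.28, inside the spread of genes of like level, and the intervals of Mir450-1 and Mir450-2 are wide.

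Marker genes were checked for the tissue and for other cells. The epithelial miR-200 genes, 5 of 5 with a row, summed to 31605 ± 77.1 CPM, Mir126a of endothelium stood at 79588 ± 10777, and 5 genes of smooth muscle and mesenchyme summed to 42211 ± 3023. Genes of striated muscle, a tissue in which the cluster is well known, summed to 4.78 ± 0.512 CPM, with 4 of 5 at 0 counts in both pups. A hairpin elsewhere has a stretch of 22 bases in common with 3 of those genes, so a count of 0 sets no limit on them. Sums of other lists were 872 ± 34.0 CPM for proximal tubule, 329 ± 28.7 for leukocytes, 168 ± 16.8 for endocrine cells, 50.6 ± 9.00 for liver and 1.81 ± 0.379 for neural cells. Of the listed genes, 2 of 3 for leukocytes and 5 of 6 each for neural cells and striated muscle had a row. All 5 neural genes with a row, 2 of 4 proximal tubule genes, 2 of 3 endocrine genes and 2 of 5 of smooth muscle and mesenchyme also share such a stretch, so their sums leave out any reads listed as multimapping and do not bound the levels. The 3 erythroid genes summed to 241 CPM in pup 1 and 98.8 in pup 2, but they went both ways. Mir451a was lower in pup 2 (log2 ratio -1.98) and Mir144 higher (0.39). Mir126a had 71968 CPM in pup 1 and 87209 in pup 2. The part of erythroid and endothelial cells in the members' differences was not tested. In whole tissue, fewer cells of a type and less RNA per cell cannot be told apart, and which kidney cells hold the cluster was not measured.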

How the data were processed

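MicroRNA sequencing was done on 2 kidney libraries of newborn mice. The deposited files give raw read counts for each microRNA gene, counted on mm10 with annotation M4, per the notes deposited beside them. Neither aligner nor trimming nor filters are given in the sources at hand. Of 3 count columns, that for the strand of the gene was used, read from the values. The 4 rows that name no gene stayed out: unmapped reads took 8.52% and 8.69% of reads in pup 1 and pup 2, multimapping reads 30.3% and 31.0%, and reads of no listed gene 2.91% and 2.92%.

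Identifiers were matched without version to GENCODE M21 (1894 of 1973 genes). Counts were scaled to CPM by the total over named genes. Counts of pup 2 and pup 1 were compared by exact binomial tests given TMM effective library sizes (edgeR 4.0.16), with a prior count of 0.5 in ratios and a threshold of 0.05 on adjusted p-values. The test was first checked on simulated counts that held counting error only, so that check does not cover the spread between pups. Named genes were all members, genes with a member's seed, direct neighbours in level, the 5 highest other X-linked genes, the 5 highest clusters and the marker lists. Genes were marked when their hairpin shares 22 bases with one elsewhere. Alternatives were other scalings (DESeq2 1.42.0 size factors, totals), denominators, no count filter, either strand, hairpin length and single pups. Members and lists were chosen with earlier results of these data known.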

Additional observations from a re-analysis of the deposited data

Results flagged for a closer look

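Reads on the strand opposite to Mir497b, which enter no gene-strand count, came to 11861 over both pups, above the floor of 3 counts. Mir497, a gene with the seed of miR-322-5p and no row of its own, lies there on the other strand of chromosome 11 and overlaps Mir497b by 84 bases. On their own strand the counts of Mir497b were 1 in pup 1 and 0 in pup 2. No member of the cluster of Mir322 had a read on the opposite strand in either pup. Groups of 2 samples are too small to look for a sample that stands apart.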

How the results depend on the processing

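With 1 pup alone, the cluster's share of counts ran from 4.82 to 4.85%, its share of X-linked counts from 70.3 to 70.5% and the share of Mir322 in the cluster from 90.2 to 90.9%. The share of all counts was 4.74% with counts on either strand, 3.06% of all mapped reads and 5.72% without Mir10a, the most abundant gene, in the total. Per 100 bases of hairpin the ratio of Mir322 was 42.7 to Mir503, 54.1 to Mir542, 246 to Mir450b and 2956 to Mir450-2. Without genes that share 22 bases with another hairpin, Mir322 held 84.6% and Mir351 47.4% of their seed groups. Leaving out other genes of a group can only raise such a share, so these values do not bound the effect of multimapping reads. Mir322 held 77.6% with the reads at Mir497 added, the alternative chosen after seeing the data. The edgeR exact test, whose dispersion comes from the same pair of libraries, called 1 gene, 0 higher and 1 lower in pup 2, and 0 members. Library totals called 97 genes with 46 higher and 51 lower, and DESeq2 size factors 96 with 43 and 53, against 109 with 41 and 68 by TMM. Both ended the calls of Mir503 and Mir125a, and both turned the sign of Mir542, to 0.0090 and 0.0023, a ratio that passed under no setting. No paired analysis was possible because there is 1 group. Depth limits Mir450-1 and Mir450-2 most, with 40 to 86 counts per pup.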
